A study of Mus musculus with 3 samples.

Results

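The 40 genes described here are cell cycle genes, chosen by name from among the 32285 genes of the count tables, and all 40 were found under 1 row each. They were read in leukocytes taken from the islets of female wild-type NOD mice, a strain that develops autoimmune diabetes spontaneously. Per the study's methods the mice were 15 to 16 weeks old, the islets of 2 to 3 mice were pooled for each library, and live cells carrying CD45, a surface protein of leukocytes, were sorted by flow cytometry. The series holds 3 libraries of 1 group (replicates 1, 2 and 3) made in 2 independent experiments, and which library belongs to which experiment is not given in the sources used here. There was no treated or control group, so comparisons were made between classes of cells of the same library. A class was set from raw counts of unique molecular identifiers (UMIs, each 1 captured RNA molecule), in cells with at least 1000 UMIs and under 10% of them mitochondrial. CD8 T cells had a UMI of Cd3e, 2 or more of Cd8a and Cd8b1 together and none of Cd4. CD4 T cells had Cd3e and Cd4 and neither CD8 gene nor Foxp3, and regulatory T cells (Treg) had Cd3e and Foxp3. B cells had 2 or more UMIs of Cd79a and macrophages 5 or more of C1qa and C1qb together, both without Cd3e.

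A dividing cell copies its DNA in S phase and then segregates it in mitosis, and separate sets of genes serve these steps. The S-phase members form the replicative helicase (Mcm2 to Mcm7) or serve its loading and activation (Cdc6, Gins2). Others clamp the polymerase to DNA (Pcna), make nucleotides (Tyms, Rrm1, Rrm2, Tk1) or maintain methylation on the new strand (Uhrf1). The mitotic members include the kinase Cdk1 and its cyclins (Ccna2, Ccnb1, Ccnb2) and the kinases of the spindle and checkpoint (Aurka, Aurkb, Plk1, Bub1, Bub1b). They also include centromere and motor proteins (Cenpa, Cenpe, Cenpf, Kif11, Kif20a) and microtubule-binding proteins of the spindle (Nusap1, Tpx2). Proteins of the ubiquitin pathway that ends mitosis (Cdc20, Ube2c) belong here too, as do Birc5, Top2a and Mki67, whose protein Ki-67 is the usual marker of cycling cells. The remaining 5 members (Stmn1, Hmgb2, Tubb5, Tuba1b and H2afz) encode a tubulin-binding protein, a chromatin protein, both tubulin types and a histone variant, and resting cells also express them. T cells that meet their antigen leave a resting state and divide. Genes of S phase are classically regulated through E2F sites, and late genes through the cell cycle homology region (CHR). Complexes that hold MuvB, such as DREAM, bind the CHR, which often lies near CCAAT boxes.

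Promoters are shown for 1 S-phase member and 3 mitotic members as examples, since these letters do not depend on the expression data. Each run is the 250 bases before the start site in RefSeq (build GRCm38.p6), read 5′ to 3′ on the gene's strand, with capitals on matches to an E2F motif, a CHR motif or CCAAT on either strand.
Mcm5: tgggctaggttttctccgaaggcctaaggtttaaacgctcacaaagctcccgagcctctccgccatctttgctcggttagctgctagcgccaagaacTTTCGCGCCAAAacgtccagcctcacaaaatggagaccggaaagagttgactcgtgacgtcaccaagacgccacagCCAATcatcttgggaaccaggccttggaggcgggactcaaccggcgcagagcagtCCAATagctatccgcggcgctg
Cdk1: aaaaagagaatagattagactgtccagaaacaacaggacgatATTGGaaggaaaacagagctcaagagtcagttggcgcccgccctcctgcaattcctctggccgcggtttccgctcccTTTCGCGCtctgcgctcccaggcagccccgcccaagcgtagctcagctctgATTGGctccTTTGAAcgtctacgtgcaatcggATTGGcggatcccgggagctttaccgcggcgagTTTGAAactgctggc
Mki67: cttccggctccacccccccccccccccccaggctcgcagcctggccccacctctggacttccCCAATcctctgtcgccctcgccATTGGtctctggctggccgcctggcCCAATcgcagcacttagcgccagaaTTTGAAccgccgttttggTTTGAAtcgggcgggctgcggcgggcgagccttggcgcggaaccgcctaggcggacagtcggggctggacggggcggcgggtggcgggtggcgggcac
Top2a: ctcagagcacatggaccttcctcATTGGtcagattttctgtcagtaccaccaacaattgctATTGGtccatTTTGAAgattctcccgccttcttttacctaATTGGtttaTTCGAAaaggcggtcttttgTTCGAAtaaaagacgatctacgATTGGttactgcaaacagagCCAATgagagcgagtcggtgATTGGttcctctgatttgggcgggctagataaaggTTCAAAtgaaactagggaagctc
The Mcm5 run is chr8:75109259-75109508 (plus strand), that of Cdk1 chr10:69352913-69353162, that of Mki67 chr7:135716380-135716629 and that of Top2a chr11:99024190-99024439 (all 3 on the minus strand). Mcm5 held 2 overlapping E2F matches, the first at 153 bases before the start, 2 CCAAT boxes and no CHR match. Top2a held 4 CHR matches and 6 CCAAT boxes, and Mki67 held 2 and 3, neither with an E2F match. Cdk1 held 2 CHR matches, 3 CCAAT boxes and 1 E2F match. RefSeq windows of 300 bases (250 before to 50 after the start) were found for 33 members. An E2F motif (TTTCGCGC, TTTGGCGC or TTTCCCGC, either strand) was in 6 of 12 S-phase members, 1 of 17 mitotic members and 0 of 4 broadly expressed members, against 2.12% of 27025 genes. A CHR motif (TTTGAA or TTCGAA) was in 13 of 17 mitotic members, 2 of 12 S-phase members and 1 of 4 broadly expressed members, against 21.7% of genes. CCAAT was in 15 of 17, 9 of 12 and 3 of 4, against 41.1% of genes. Tyms, Tk1, Birc5, Nusap1 and Tuba1b held no match of any kind, so the motifs do not sort every member into its list. These are matches of letters and not measured binding sites.

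Of 26947 barcodes, 26142 passed the limits (5727, 9199 and 11216 in replicates 1, 2 and 3), with median depths of 4291 to 6522 UMIs. The classes held 3258 CD8 T cells, 5858 CD4 T cells, 1671 Treg, 4936 B cells and 72 macrophages, and 10410 cells (39.8%) met no rule and are called unclassed. Of the classed cells 63 met 2 rules and were counted in both classes, 59 of them as CD8 T cells and Treg and 4 as B cells and macrophages. The libraries held 33851381, 74775394 and 80806452 UMIs in all. They shared 12 to 29 barcodes by pair. Median depth in replicates 1, 2 and 3 was 5397, 7665 and 6516 UMIs in CD8 T cells. In CD4 T cells it was 4549, 6423 and 5520 UMIs, and in Treg 4682, 10106 and 9166.5 UMIs. Markers of T cells other than Cd3e summed to 3229 to 4501 UMIs in each 1000000 of the class (CPM) in the 3 T-cell classes and to 34.9 to 160 CPM in B cells and macrophages. Macrophage markers summed to 13891 to 19462 CPM in macrophages and 6.16 to 204 CPM in the other classes. The CD8 T list (Cd8a, Cd8b1, Nkg7 and Ccl5) summed to 5741 to 6479 CPM in CD8 T cells and 3117 to 5012 CPM in macrophages. Plasma-cell markers were at 4160, 342 and 338 CPM in macrophages of replicates 1, 2 and 3. Markers of B cells summed to 25579 to 40299 CPM in B cells, 22420 to 34037 CPM in macrophages and 2404 to 8777 CPM in the T-cell classes. In macrophages Cd74, which antigen-presenting cells share, made up 18651, 23831 and 22354 CPM of that sum, while the antibody light chain gene Igkc was at 15226, 461 and 65.9 CPM and Cd79a at 135, 168 and 0 CPM. The part of this B-cell RNA in the results below was not tested. Of Treg, 17.3 to 32.7% also carried markers of another class.

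Replicate 1 stood apart from the other libraries in nearly every member, in T cells and B cells alike. Mki67 was at 150 CPM in CD8 T cells of replicate 1 and at 15.7 and 20.3 CPM in replicates 2 and 3. In CD4 T cells it was at 97.5, 12.6 and 10.2 CPM, in Treg at 161, 16 and 23.7 CPM, and in B cells at 48.9, 6.82 and 15.8 CPM. All 40 members had their highest level in replicate 1 in CD8 T cells and in CD4 T cells, and 39 did in Treg and in B cells. Over all genes with at least 20 UMIs in the class, 40.9 to 49.9% were highest in replicate 1. The median ratio of replicate 1 to the other libraries pooled was 9.18 for mitotic members in CD8 T cells, 11.3 in CD4 T cells, 8.82 in Treg and 4.65 in B cells. For S-phase members it was 2.52, 2.32, 2.97 and 1.53 in the same order, while the median over all genes lay between 0.980 and 1.05. Among members with at least 1 CPM in every library, the ratio was highest for Ccna2 in CD4 T cells (20.8) and for Tpx2 in CD8 T cells (15.5). In CD8 T cells it was lowest for Mcm6 (1.34), Mcm4 (1.39) and Cenpa (1.47). Exceptions were Aurka in Treg, at 1.30, 1.08 and 2.67 CPM, and Tuba1b in B cells, at 93.8, 129 and 174 CPM. Since the group is 1, this difference between libraries has no test. Counts without replicate 1 are given below for most comparisons. For Treg against CD4 T cells, for Pdcd1 and for cells chosen on raw UMIs they appear only within a range over libraries left out. For cells chosen on mitotic UMIs none is given, so the part of replicate 1 in those calls is not shown here. Replicates 1, 2 and 3 held 68, 26 and 32 of the chosen CD8 T cells and 63, 22 and 39 of the chosen CD4 T cells.

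**Figure D1:**
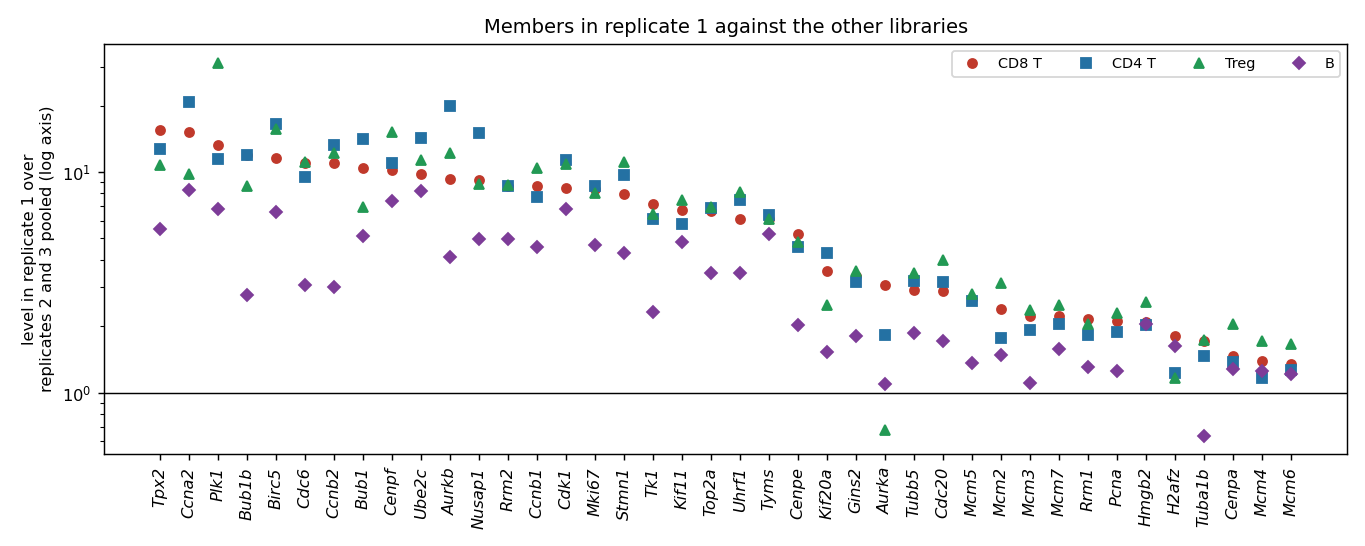
Level of each of the 40 members (CPM) in replicate 1 divided by its level in replicates 2 and 3 pooled, on a log axis, in CD8 T cells, CD4 T cells, Treg and B cells, ordered by the value in CD8 T cells. All points of CD8 and CD4 T cells lie above 1, while Aurka in Treg and Tuba1b in B cells lie under it.

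Among S-phase members, summed levels in replicates 1, 2 and 3 were 1040, 474 and 484 CPM in CD8 T cells and 888, 455 and 470 CPM in CD4 T cells. Treg held 1186, 445 and 502 CPM, and B cells held 470, 307 and 366 CPM. CD8 T cells were above CD4 T cells in each library, by little in replicates 2 and 3, Treg were above both in replicates 1 and 3 and under both in replicate 2, and B cells were under every T-cell class of the same library. Pcna was at 238, 123 and 103 CPM in CD8 T cells and at 122, 96.4 and 99.7 CPM in B cells. Mcm6, a helicase subunit, was at 207, 144 and 164 CPM in CD8 T cells and at 63.7, 49.4 and 57.2 CPM in B cells, so that those classes did not overlap. Mcm5 was at 53.2, 20.2 and 19.8 CPM in CD8 T cells. Tyms, which makes thymidylate, was at 72.5, 10.9 and 12.8 CPM there and Rrm2, a subunit of ribonucleotide reductase, at 68.2, 9.86 and 5.90 CPM. Both of these followed the mitotic members in their drop from replicate 1, and Mcm6 did not.

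Among mitotic members, sums were 1119, 215 and 253 CPM in CD8 T cells, 803, 183 and 196 CPM in CD4 T cells, and 1237, 192 and 266 CPM in Treg. B cells had 440, 156 and 210 CPM. CD8 T cells were above CD4 T cells in each library, while Treg were above CD8 T cells in replicates 1 and 3 and under them in replicate 2. In CD8 T cells Top2a, which untangles DNA, was at 156, 21.2 and 25.6 CPM and Cdk1 at 36.8, 3.82 and 4.84 CPM. There Ccnb2 was at 43.5, 3.73 and 4.22 CPM, Birc5 at 110, 8.17 and 10.7 CPM, and Ube2c at 103, 6.84 and 14.2 CPM. Cenpa, the centromeric histone, behaved otherwise, with 179, 117 and 126 CPM in CD8 T cells and 136, 103 and 111 CPM in B cells. Its UMIs were 16% of all mitotic UMIs in CD8 T cells of replicate 1 and 54.5% and 49.9% in the other libraries. A sum over the mitotic list in replicates 2 and 3 is thus to a large part Cenpa.

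**Figure D2:**
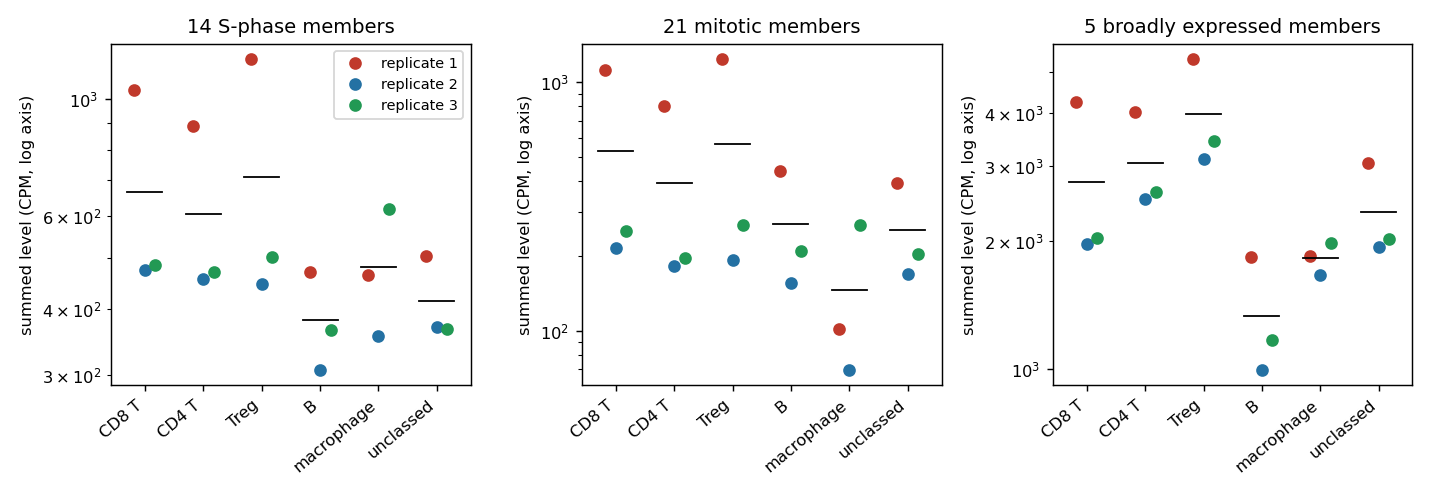
Summed level of the 14 S-phase, 21 mitotic and 5 broadly expressed members (CPM, log axes that differ between panels) by class of cell, with 1 point per library and a line at the mean. Replicate 1 is the highest library in every T-cell and B-cell class and in unclassed cells, and mitotic sums in CD8 T cells are 1119, 215 and 253.

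Among the broadly expressed members, Stmn1 was at 428, 69.7 and 37.8 CPM in CD8 T cells and at 281, 36.8 and 22.3 CPM in CD4 T cells. Hmgb2 was at 1259, 612 and 591 CPM in CD8 T cells and 638, 291 and 343 CPM in B cells. Tubb5 was at 439, 138 and 164 CPM in CD8 T cells and 318, 95.8 and 102 CPM in CD4 T cells, higher in CD8 T cells in 3 of 3 libraries. H2afz, the histone variant H2A.Z, was at 2838, 2339 and 2541 CPM in Treg, 2219, 1759 and 1850 CPM in CD4 T cells, 1952, 1037 and 1134 CPM in CD8 T cells, and 769, 445 and 512 CPM in B cells. That order was the same in every library. Tuba1b was at 182, 106 and 107 CPM in CD8 T cells.

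In the fit over all 3 libraries, CD8 T cells had more RNA of several mitotic genes than CD4 T cells. Of the 40 members, 7 were higher and 0 lower (17.5% higher), where 4.28% of 12148 genes were higher, 6.03% lower and 10.3% either. The higher members were 5 of 21 mitotic (Ccna2, Ube2c, Cenpf, Nusap1 and Cdk1), 2 of 5 broadly expressed (Stmn1 and Tubb5) and 0 of 14 S-phase members. Ccna2 was at 48.2, 3.02 and 3.34 CPM in CD8 T cells against 26.8, 1.47 and 1.14 CPM in CD4 T cells. It rose by 1.14 ± 0.33 (log2, standard error), with an edgeR adjusted p of 0.048. Ube2c, at 64.9, 5.58 and 3.71 CPM in CD4 T cells, was higher by 1.02 ± 0.25 (adjusted p = 0.015), and Cenpf by 1.02 ± 0.26 (0.020). Cdk1 was at 25.3, 2.06 and 2.38 CPM in CD4 T cells, so that CD8 T cells were above in each library, by 0.87 ± 0.20 (0.011). Stmn1 was higher by 0.86 ± 0.22 (0.019). Mki67 gave 0.74 ± 0.26 (0.094) and H2afz −0.44 ± 0.15 (0.078), which did not pass. More cycling cells and more RNA per cycling cell cannot be told apart in such sums. The median log2 difference was 0.49 over members and 0.01 over all genes, with 39 of 40 members above 0. Without replicate 1, where 5.54% of genes were higher and 7.07% lower, 10 members passed, 9 higher and H2afz lower, of which Cdk1, Nusap1, Stmn1, Tubb5 and Ube2c were also among the 7. Without replicate 2 only Ube2c passed, and without replicate 3 only Ccna2. Both counts stand without the share of all genes in those fits and are not read as a result about members. No mitotic member passed in every fit that left out 1 library. Cenpf and Ube2c turned sign under the study's limits on cells, given below. Among 78 other cell cycle genes tested, 8 were higher and 2 lower. Ccne1, the cyclin of the start of S phase, was higher by 1.13 ± 0.27 (0.015), the cytokinesis gene Racgap1 by 1.05 ± 0.16 (0.00044), Pclaf, which binds the replication clamp, by 0.97 ± 0.28 (0.036) and E2f1 by 0.95 ± 0.25 (0.021). Cdkn1a, which encodes the inhibitor p21, fell by 0.90 ± 0.17 (0.0022).

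Between Treg and CD4 T cells 0 of 40 members passed, where 5.53% of genes did (3.3% higher, 2.23% lower). At an unadjusted p under 0.05 there were 11, a count given without the share of all genes and not read as a result about members. DESeq2 also called 0. Cdk1 was at 43.5, 3.25 and 4.64 CPM in Treg, above CD4 T cells in each library, and gave 0.74 ± 0.21 (edgeR adjusted p = 0.055). Mki67 gave 0.68 ± 0.27 (0.19). The member median was 0.34, against 0.00 over all genes. Of 78 other cell cycle genes 4 were higher and 0 lower. E2f7, a repressor of the E2F family, was at 11.7, 1.49 and 2.20 CPM in Treg and 4.36, 0.646 and 0.594 CPM in CD4 T cells, higher by 1.44 ± 0.33 (0.022). Cdkn1a was at 166, 93.0 and 83.9 CPM in Treg and 93.4, 43.2 and 48.0 CPM in CD4 T cells, higher by 0.84 ± 0.16 (0.0055). Prc1, a spindle midzone gene, was higher by 0.75 ± 0.20 (0.036), and Myc by 0.62 ± 0.16 (0.033). Between CD8 T cells and Treg, 15.2% of genes passed (6.17% higher, 9.08% lower) and 1 of 40 members did. That member was H2afz, which fell by 0.77 ± 0.15 (0.0023) in CD8 T cells. It was also the 1 member called with the 59 cells of both classes left out. Without replicate 1, where 7.89% of genes were higher and 10.5% lower, 6 members passed, with Mcm4, Mcm6, Stmn1, Tuba1b and Tubb5 higher in CD8 T cells. Cdkn1a fell by 1.74 ± 0.17 (4.9e-06) in CD8 T cells against Treg, and Racgap1 was higher by 1.02 ± 0.18 (0.00092). Klf2, which keeps T cells quiescent, was higher by 0.92 ± 0.28 (0.039), Kif23 by 0.85 ± 0.25 (0.032) and Atad2 by 0.84 ± 0.12 (0.00018), so that 5 of 78 other genes were higher and 2 lower.

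B cells held less of 9 members than CD4 T cells and more of none. In this comparison 51.5% of genes differed and 27.3% were lower, against 22.5% of members lower, so the members' share was not above the background. S-phase members made up 5 of the 9 (Tyms, Mcm6, Rrm2, Mcm4 and Rrm1). Tyms was at 15.8, 1.99 and 4.49 CPM in B cells against 68.5, 9.22 and 12 CPM in CD4 T cells, and fell by 1.81 ± 0.15 (7.6e-08). H2afz fell by 1.66 ± 0.15 (2.5e-07), Mcm6 by 1.41 ± 0.12 (6.5e-08), and the spindle motor Kif11 by 1.34 ± 0.22 (0.00021). Smaller drops were those of Rrm2, by 0.99 ± 0.33 (0.024), Cdk1, by 0.70 ± 0.22 (0.016), and Hmgb2, by 0.65 ± 0.13 (0.00076). Mki67 gave −0.35 ± 0.28 (0.32) and Mcm5 0.17 ± 0.20 (0.51). Without replicate 1, 5 members were higher in B cells and 7 lower, where 24.1% of genes were higher and 30.4% lower. Without replicate 3, 14 passed, a count given without the share of all genes in that fit and not read as a result about members. Of the other cell cycle genes 7 were higher and 21 lower. Myc, which drives growth, was at 69.7, 54.4 and 69.2 CPM in B cells and 15.3, 10.1 and 13.4 CPM in CD4 T cells, higher by 2.45 ± 0.14 (1.6e-09). Kif23 was at 16.8, 7.96 and 11.7 CPM in B cells and 47.9, 86.3 and 92.9 CPM in CD4 T cells, lower by 5.65-fold. Kif23 encodes a motor of cytokinesis, yet its level was not highest in replicate 1 in any T-cell class. Ckap2l was higher by 2.13 ± 0.32 (4.4e-05), while Cdkn2a fell by 1.66 ± 0.41 (0.0032) and Cdkn2c by 1.62 ± 0.27 (0.00012).

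Macrophages rested on 34, 11 and 27 cells with 622712 UMIs in all. Of the 40 members 9 had 0 UMIs in them (Rrm2, Cdk1, Ccna2, Ccnb1, Aurkb, Kif11, Kif20a, Nusap1 and Plk1), which allows a level of up to 4.82 CPM over the 3 libraries pooled. In the fit against CD4 T cells 35.2% of genes passed (15.2% higher, 20% lower), genes at 0 UMIs in macrophages included. Of the 31 members with a UMI in macrophages 1 was higher and 10 lower, where of all genes with a UMI there 37.8% passed, 17.7% higher and 20.1% lower. Their median log2 difference was −0.73, and that of all such genes −0.24. Cdk1 and Kif11 passed as lower too, but with 0 UMIs in macrophages they entered the fit through the other classes. Pcna was the higher member, at 325, 272 and 441 CPM in macrophages and 205, 111 and 107 CPM in CD4 T cells, by 1.42 ± 0.24 (0.00027). In the same cells Mcm6 was at 25.3, 20.9 and 33.0 CPM, against 192, 154 and 150 CPM in CD4 T cells, and fell by 2.58 ± 0.25 (7.2e-07). Mcm4 fell by 2.46 ± 0.48 (0.00075), Mcm7 by 2.48 ± 0.53 (0.0017), Top2a by 2.92 ± 0.82 (0.011) and Stmn1 by 2.17 ± 0.57 (0.0074). Mcm2 passed too, on 1 UMI. Mki67 was at 42.2, 6.98 and 61.8 CPM, from 10, 1 and 15 UMIs, and gave 0.21 ± 0.66 (0.82). Without replicate 1, 8 members passed, 2 higher and 6 lower. The share of all genes in that fit is not given, so this count is not read as a result about members. Cdkn1a was at 794, 607 and 1005 CPM in macrophages and no more than 166 CPM in any library of another class. Ccnd1, the cyclin that answers growth factors, was at 101, 6.98 and 78.3 CPM, against 7.50, 3.52 and 6.09 CPM in CD4 T cells. Of 64 other cell cycle genes with a UMI in macrophages 3 were higher and 23 lower, among them Atad2, which fell by 4.27 ± 0.46 (2.9e-06).

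**Figure D3:**
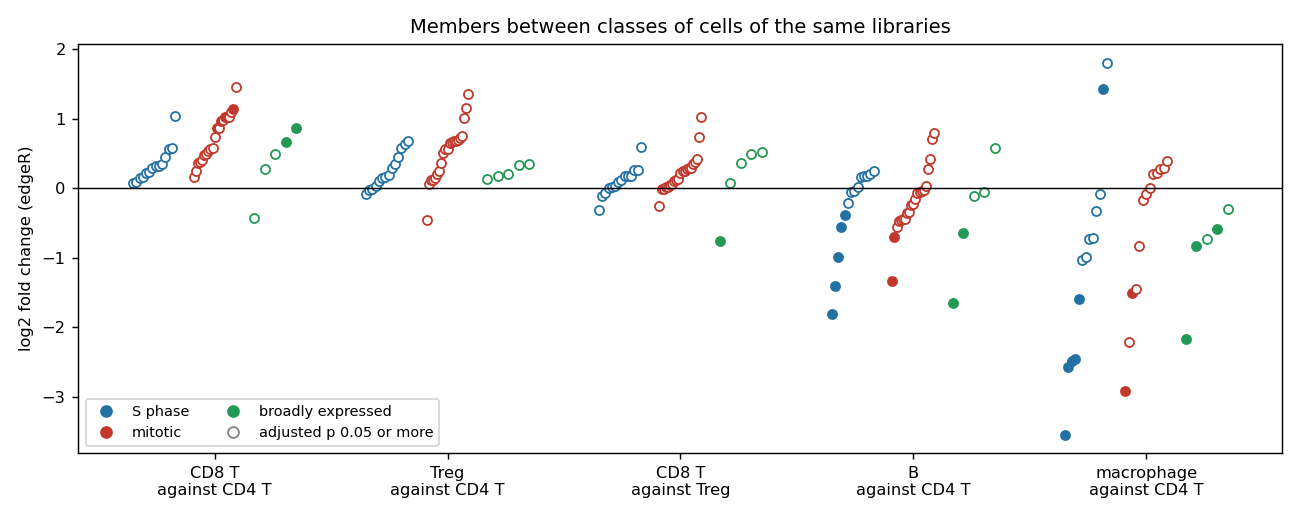
Log2 fold change of each tested member between classes of cells of the same libraries, from the edgeR fit over 3 libraries, with filled points at an adjusted p under 0.05. The 9 members at 0 UMIs in macrophages are left out of the last column. Filled points lie above 0 for CD8 T against CD4 T cells, and under 0 for B against CD4 T cells.

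The share of cells with 5 or more UMIs of the 40 members depended on depth. At full depth it was 95.01, 97.9 and 97.3% of CD8 T cells, 94.6, 96.3 and 95.4% of CD4 T cells and 71.4, 83.2 and 79.6% of B cells. After each cell was thinned to 2000 UMIs, it was 62.7% of CD8 T cells of replicate 1 (95% exact interval 58.6 to 66.6%), 45.3% in replicate 2 (42.5 to 48.1%) and 49.2% in replicate 3 (46.6 to 51.8%). CD4 T cells had 71.7, 58.4 and 61.7%, Treg 83.4, 72.4 and 72.7%, and B cells 24.0, 15.1 and 18.4%. Intervals cover counting error only. Treg were above CD4 T cells by 12.2 ± 1.58 percentage points (SD, n = 3) and CD8 T cells under them by 11.5 ± 2.22 points, with 3 of 3 libraries on 1 side in each case. An exact sign-flip test of 3 libraries gives p = 0.25, two-sided, the smallest it can reach. Counting 5 or more UMIs of the 35 members other than the broadly expressed, a setting added after the data were seen, turned the order of CD8 and CD4 T cells, with CD8 T cells above by 4.65, 0.65 and 1.65 points (mean 2.32 ± 2.08, exact p = 0.25). At 3 or more UMIs of the 35 members the differences were 5.50, 0.62 and −0.24 points, so that replicate 3 did not turn. The excess of Treg over CD4 T cells shrank most in replicates 2 and 3. It was 7.90, 0.48 and 0.91 points at 5 or more UMIs of the 35 members. At 3 or more it was 9.96, −0.46 and 1.48 points. H2afz was the one broadly expressed member lower in CD8 T cells in every library.

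Counting mitotic members alone set apart a small number of cells. After thinning, 3 or more mitotic UMIs were found in 11.7, 2.13 and 2.19% of CD8 T cells and 7.08, 1.04 and 1.39% of CD4 T cells. Treg had 13.5, 2.03 and 3.27%, and B cells 3.34, 1.18 and 1.66%. CD8 T cells were above CD4 T cells in 3 of 3 libraries, by 2.19 ± 2.15 points (exact p = 0.25). Of macrophages 1 of 71 reached 5 mitotic UMIs. At 5 or more UMIs there were 217 cells in all, 145 of them in replicate 1, 24 in replicate 2 and 48 in replicate 3. They were 59 CD8 T cells, 53 CD4 T cells, 32 Treg, 39 B cells, 1 macrophage and 35 unclassed cells, with 2 cells counted both as CD8 T cells and as Treg. Their median depth before thinning was 16223, 15268 and 18334 UMIs, against 4320, 6545 and 5628.5 UMIs in all other cells. Under the study's limits on cells (fewer than 6000 UMIs, 200 to 5000 genes, and limits on mitochondrial and ribosomal reads), 12, 5 and 5 of these cells stayed. That is 8.28, 20.8 and 10.4% of them, against 72.2, 30.4 and 48.1% of other cells.

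**Figure D4:**
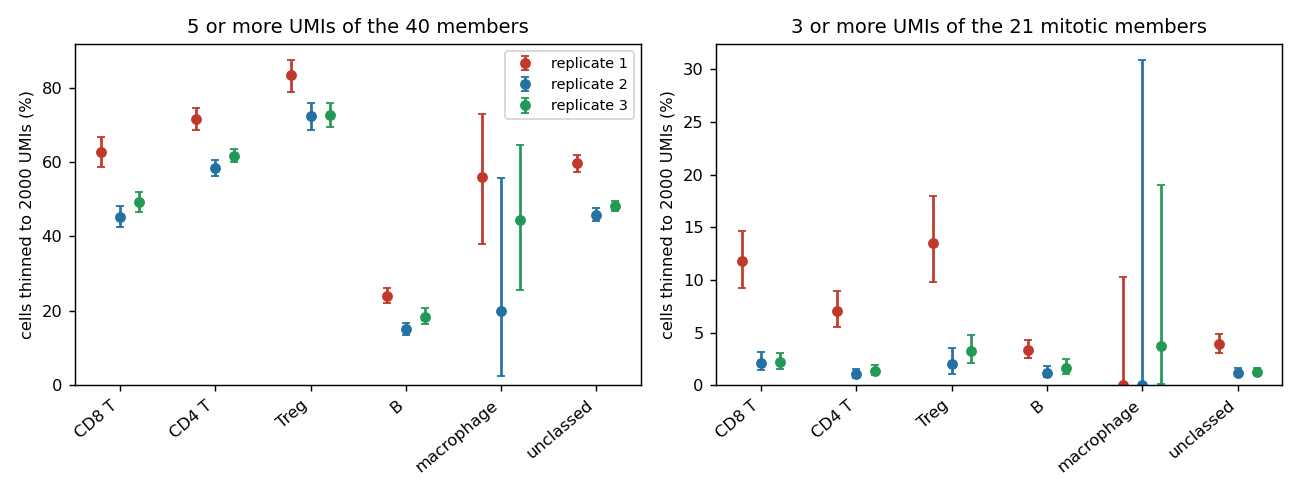
Share of cells, after thinning to 2000 UMIs, with 5 or more UMIs of the 40 members (left) and with 3 or more UMIs of the 21 mitotic members (right), by class and library, with 95% exact binomial intervals. The left panel orders Treg, CD4 T and CD8 T cells from high to low in each library, and in the right panel CD8 T cells are above CD4 T cells in each library.

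S-phase and mitotic UMIs met in the same cells in part. After thinning, 3 or more UMIs of both lists were found in 41, 11 and 10 CD8 T cells, of S-phase members alone in 60, 75 and 101 and of mitotic members alone in 27, 15 and 22. In CD4 T cells these counts were 40, 6 and 10 for both, 78, 164 and 183 for S-phase members alone and 23, 16 and 29 for mitotic members alone. In these 2 classes, cells with 3 or more mitotic UMIs therefore held 3 or more S-phase UMIs more often than not in replicate 1. In replicates 2 and 3 they did so less often than not. Over all cells of replicate 1 the share was 47.0%. The contrast between libraries did not hold at 5 or more mitotic UMIs, where cells were few. There 70.7, 75 and 60% of 41, 8 and 10 CD8 T cells held 3 or more S-phase UMIs. In CD4 T cells it was 72.5, 100 and 77.8% of 40, 4 and 9 cells. In cells with fewer than 3 mitotic UMIs, S-phase members stood at 591, 420 and 442 CPM in CD8 T cells, 582, 433 and 435 CPM in CD4 T cells, 715, 423 and 442 CPM in Treg and 354, 297 and 336 CPM in B cells, so that replicate 1 was the highest library there too. With cells chosen on 3 or more mitotic UMIs after thinning, a choice made after the data were seen, the other members were set against cells with fewer. Mitotic members chose the cells and get no test. In CD8 T cells, where 14.6% of 8924 genes differed, 9.14% higher and 5.47% lower, 14 of 14 S-phase and 5 of 5 broadly expressed members were higher. Stmn1 was at 1165, 804 and 403 CPM in the chosen CD8 T cells and 144, 46.9 and 23.3 CPM in the others, higher by 3.69 ± 0.19 (edgeR adjusted p = 1.3e-11). Hmgb2 was at 3033, 3045 and 2571 CPM against 576, 537 and 513 CPM, higher by 2.38 ± 0.12 (4.4e-12). No library of the chosen cells overlapped the others for either gene. Rrm2 was higher by 4.81 ± 0.27 (2.6e-11), Tyms by 3.37 ± 0.22 (3.9e-10), Mcm5 by 2.49 ± 0.22 (3.0e-08) and Pcna by 1.84 ± 0.18 (1.2e-07). Mcm6, by 0.98 ± 0.15 (9.6e-05), and H2afz, by 0.90 ± 0.12 (1.3e-05), moved least.

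In CD4 T cells, where 12% of 9569 genes differed, 7.76% higher and 4.25% lower, 14 of 14 S-phase and 5 of 5 broadly expressed members were also higher. Stmn1 gave 3.88 ± 0.18 (2.7e-10), Rrm2 5.72 ± 0.40 (3.7e-08), Mcm6 0.65 ± 0.16 (0.011) and H2afz 0.47 ± 0.14 (0.034). Of 77 other cell cycle genes 62 were higher and 4 lower in CD8 T cells, and 59 and 5 in CD4 T cells. Pclaf was at 666, 560 and 406 CPM in the chosen CD8 T cells and 44.2, 9.62 and 9.88 CPM in the others. Kif23, again apart, was at 71.8, 70.7 and 99.7 CPM in the chosen CD8 T cells and 38.6, 84.1 and 92.1 CPM in the others. Outside cell cycle lists the linker histone gene Hist1h1b was at 1043, 1903 and 1780 CPM against 44.2, 31.5 and 20.5 CPM in CD8 T cells and at 1183, 987 and 1661 CPM against 24.0, 9.36 and 13.1 CPM in CD4 T cells. Hist1h3b, a core histone gene, was at 31.5, 135 and 46.4 CPM in the chosen CD8 T cells, against 2, 7 and 5 UMIs in the others. In CD4 T cells it was at 40.5, 105 and 38.4 CPM, against 7, 3 and 3 UMIs. So few UMIs in the other cells set the fold by the floor, and none is given. Histone genes of this cluster are near-identical copies, so their counts may be shared between them. Esco2, which joins sister chromatids, was at 63.8, 41.2 and 46.4 CPM in the chosen CD8 T cells, against 10, 2 and 5 UMIs in the others. In CD4 T cells it was at 69.3, 46.4 and 48.0 CPM, against 11, 2 and 6 UMIs, and its fold is likewise left out.

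Of genes that mark T-cell states, Il7r, the receptor of the survival factor interleukin 7, was at 66.2, 115 and 118 CPM in the chosen CD8 T cells and 265, 224 and 262 CPM in the others. It fell by 1.44 ± 0.19 (1.4e-05) there and by 1.31 ± 0.25 (0.0018) in CD4 T cells. Klf2 fell by 0.65 ± 0.15 (0.0044) in CD8 T cells and by 0.64 ± 0.16 (0.017) in CD4 T cells. The cytotoxic genes Gzmb and Gzma were higher in chosen CD8 T cells, by 1.20 ± 0.19 (8.4e-05) and 1.11 ± 0.20 (0.00047). With cells chosen on 5 or more raw UMIs of the 35 members, neither passed in CD8 T cells, at 0.04 ± 0.16 (0.92) for Gzmb and 0.44 ± 0.23 (0.33) for Gzma, while Il7r, by 1.04 ± 0.18 (0.017), and Klf2, by 1.01 ± 0.10 (0.0019), again fell. By the mitotic choice Pdcd1, which encodes PD1, gave −0.15 ± 0.23 (0.72) in CD8 T cells and fell by 0.81 ± 0.17 (0.0035) in CD4 T cells. The libraries disagreed in CD8 T cells, at 128, 283 and 153 CPM in the chosen cells and 241, 147 and 194 CPM in the others. By the raw choice Pdcd1 passed in neither, at 0.39 ± 0.23 (edgeR adjusted p = 0.37) in CD8 and −0.04 ± 0.25 (0.96) in CD4 T cells. Tcf7, which encodes TCF1, gave −0.41 ± 0.20 (0.18) in CD8 T cells by the mitotic choice. B-cell RNA moved with this choice. Igkc was at 194, 100 and 121 CPM in the chosen CD8 T cells and at 6611, 1697 and 1718 CPM in the others. Jchain, a gene of plasma cells, was at 4.03, 17.7 and 0 CPM against 667, 185 and 173 CPM. By the choice on raw UMIs neither passed in CD8 T cells, at 1.34 ± 0.48 (edgeR adjusted p = 0.16) for Igkc and 1.41 ± 0.84 (0.39) for Jchain. Jchain was then at 425, 310 and 218 CPM against 570, 6.84 and 114 CPM, so that replicate 1 did not turn. In CD4 T cells Igkc fell by 3.37 ± 0.14 (1.2e-10) by the mitotic choice and was higher by 2.85 ± 0.41 (0.023) by the raw one. By that choice 4.38% of genes differed in CD8 T cells (2.48% higher, 1.91% lower) and 3.71% in CD4 T cells (2% higher, 1.72% lower), with 27 of 73 other cell cycle genes higher and 3 lower in CD8 T cells, 8 and 3 in CD4 T cells, and 2 of 5 and 0 of 5 broadly expressed members higher.

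CD8 T cells were then split by a UMI of Pdcd1 (1101 with, 2157 without) and of Tcf7, since PD1 and TCF1 together are the usual marks of stem-like memory T cells. At full depth Pdcd1-positive cells held more of 15 of 38 members tested and less of none, where 18.8% of 9198 genes differed, 9.42% higher and 9.35% lower. Cdk1 was at 48.7, 8.30 and 8.59 CPM with Pdcd1 and 25.2, 1.49 and 2.65 CPM without, higher by 1.46 ± 0.22 (0.00016). Mcm6 was at 243, 225 and 251 CPM with and 171, 101 and 113 CPM without, the groups not overlapping, and rose by 0.78 ± 0.09 (1.4e-05). Ccnb1 was higher by 1.14 ± 0.36 (0.037) and Cenpe by 1.00 ± 0.28 (0.017). Mki67 was at 185, 22.6 and 31.0 CPM against 116, 12.2 and 14.1 CPM, higher by 0.71 ± 0.17 (0.0062). Hmgb2 was higher by 0.41 ± 0.06 (0.00014), and Tubb5 gave 0.07 ± 0.13 (0.78).

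With Pdcd1 and Tcf7 read after thinning each cell to 2000 UMIs, the direction of most members turned. Cells with a UMI of both genes were then only 31, 35 and 59 in replicates 1, 2 and 3. Then 1 member was higher and 5 lower, where 10.9% of genes differed, 5.02% higher and 5.89% lower. Of 37 members in both fits, 34 were above 0 at full depth and 5 after thinning, and 29 changed sign. The share of all genes that changed sign is not given here. Birc5 went from 0.61 ± 0.13 (0.0022) to −1.67 ± 0.30 (edgeR adjusted p = 0.00040). Mki67 went from 0.71 to −0.66 ± 0.33 (0.23), which did not pass. Mcm6, Cdk1, Cenpe, Hmgb2 and H2afz were the members above 0 in both. A Pdcd1 UMI was found in 40.4, 39.1 and 39.0% of CD8 T cells with 2000 to 4000 UMIs (63, 9 and 23 positive cells), in 37.7, 23.1 and 26.7% of those with 4000 to 8000, in 52.8, 35.8 and 42.1% of those with 8000 to 16000, and in 66.0, 47.4 and 57.1% of those with 16000 or more. The share was thus highest in the deepest cells and lowest, in each library, at 4000 to 8000 UMIs. The part of depth in the turn was not tested. Within that deepest bin 3 or more mitotic UMIs were found in 71.0, 11.1 and 15.9% of Pdcd1-positive cells and 56.3, 6.67 and 18.2% of Pdcd1-negative cells, with replicate 3 opposite to the others. Among the other cell cycle genes 14 were higher and 9 lower at full depth. Klf2 fell by 1.47 ± 0.07 (2.3e-09) and Kif23 by 1.59 ± 0.13 (4.1e-07), while the cell cycle kinase gene Cdk6 was higher by 1.16 ± 0.16 (6.7e-05), the kinetochore gene Nuf2 by 1.17 ± 0.37 (0.035) and Cdkn2a by 1.52 ± 0.38 (0.0082). Among Pdcd1-negative cells Cdkn2a had only 1, 4 and 1 UMIs with Tcf7 and 4, 7 and 9 without, so its fold rests on few UMIs.

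**Figure D5:**
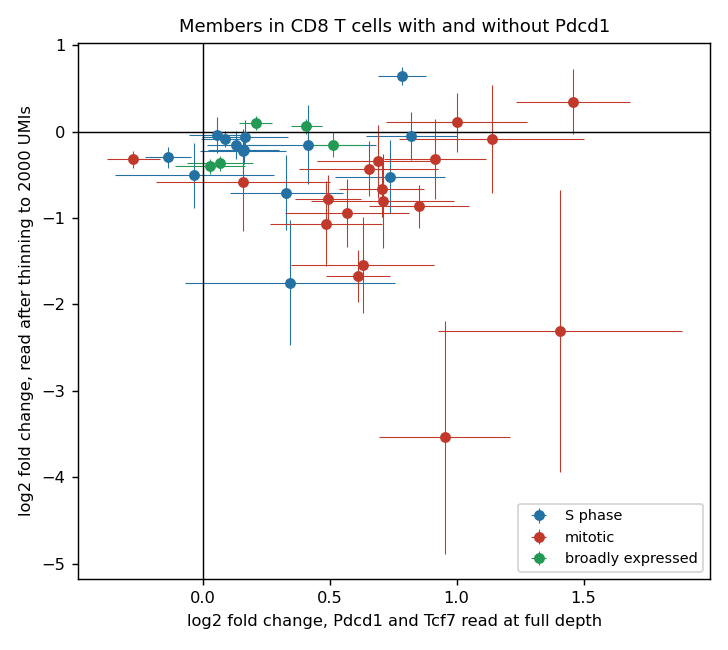
Log2 fold change of 37 members between Pdcd1-positive and Pdcd1-negative CD8 T cells, with Pdcd1 and Tcf7 read at full depth (x axis) and after thinning each cell to 2000 UMIs (y axis). Bars are standard errors of the edgeR fit over 3 libraries, and 29 members lie above 0 on the x axis and under 0 on the y axis.

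Tcf7-positive CD8 T cells held less of 2 members and more of none, where 2.96% of genes differed and 1.85% were lower. Mki67 was at 124, 7.97 and 11.1 CPM with Tcf7 and 182, 26.4 and 31.8 CPM without, and fell by 1.03 ± 0.17 (0.0018). Hmgb2 was at 1139, 540 and 530 CPM with and 1404, 712 and 668 CPM without, and fell by 0.27 ± 0.06 (0.027). Both were lower with Tcf7 in 3 of 3 libraries. After thinning 9 members were lower and 0 higher, where 2.32% of genes differed (0.684% higher, 1.64% lower). In that fit the sums of cells with both Pdcd1 and Tcf7 held 31, 35 and 59 cells, against 101, 175 and 231 at full depth. Without replicate 1 also 9 were lower, where 4.52% of genes differed (2.09% higher, 2.43% lower), but without replicate 2 none passed and without replicate 3 Mki67 alone did. For the fits without replicate 2 or replicate 3 the share of all genes is not given. Cdkn2a fell by 1.89 ± 0.36 (0.0064), Smc4, a condensin gene, was higher by 0.43 ± 0.08 (0.0040), and Klf2 by 0.38 ± 0.07 (0.0064). The Cdkn2a fold rests on few UMIs, 5, 7 and 2 in cells with Tcf7 and Pdcd1 and 1, 4 and 1 in cells with Tcf7 alone. Within Pdcd1-positive cells, those with Tcf7 held less Ube2c, by 1.19 ± 0.26 (0.018), and less Hmgb2, by 0.36 ± 0.09 (0.035), so that 2 of 38 members were lower where 2.73% of genes differed and 1.62% were lower. Without replicate 1, 6 members were lower, where 1.93% of genes were higher and 2% lower. Without replicate 2 or replicate 3 none passed, again with no share of all genes given. Lig1, a DNA ligase, fell by 0.92 ± 0.24 (0.047) and Rbl2 by 0.67 ± 0.13 (0.011), while Kif23 was higher by 0.90 ± 0.22 (0.036) and Klf2 by 0.68 ± 0.11 (0.0021). The interaction of Pdcd1 with Tcf7 gave 0% of genes past the threshold in edgeR (486 at an unadjusted p under 0.05) and 0 members in DESeq2.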

How the data were processed

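Single-cell RNA was measured with 10x 3′ libraries. The authors deposited raw UMI counts per gene and barcode, made with Cell Ranger 6.0.1 on mm10 per the labels, with no normalization and no further filter stated. From these counts, UMIs were summed by library and class (10 cells or more) and fitted with edgeR 4.0.16 (filterByExpr, TMM, glmQLFit) in R 4.3.3, with class and library as terms and Benjamini-Hochberg adjustment over all genes tested (threshold 0.05). CPM is a count scaled to a total of 1000000 UMIs. Library was a block because classes of a library come from the same pooled mice, and deviations of sums of the same library correlated by 0.359 to 0.812 (18 pairs, 7405 genes). DESeq2 1.42.0 was an alternative. Shares were read after thinning each cell to 2000 UMIs in Python 3.11.15 (numpy 2.4.6), leaving out shallower cells. No doublets were removed in the main fits, and an alternative left out the 7.6% of cells with the highest doublet score. The code of the fits was run on simulated counts. The simulated shifts between libraries were far smaller than that of replicate 1 in mitotic members, so calls under such a shift were not tested. The libraries are labelled only as separate samples. With library as a block, edgeR p-values measure the spread of class differences across libraries, with 3 libraries limiting precision. A shift of a whole library, common to its classes, is not in that spread.

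The members, the class rules and the lists of other cell cycle genes and markers were chosen with earlier results of these data known. The named genes are a set of 16 members plus, in each comparison, the 3 members and the 5 other cell cycle genes with the largest changes past the threshold, and, for the chosen cycling cells, some of the 5 genes of no list with the largest change in each direction at 50 CPM or more. Kif15 and Ndc80 in macrophages fall under that rule and have 0 UMIs there, so no fold is given. Other members were named where a count turned on them, after their values were seen.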

Additional observations from a re-analysis of the deposited data

Results flagged for a closer look

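The 35 unclassed cells with 5 or more mitotic UMIs after thinning stand out because no comparison between classes used them. They were 19, 5 and 11 cells of replicates 1, 2 and 3. A UMI of Trac, Trbc2, Cd3d or Cd3g was found in 34 of the 35, of Cd3e in 27, of Cd8a or Cd8b1 in 10, of Cd4 in 8, of Cd79a in 7 and of C1qa or C1qb in 0.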

How the results depend on the processing

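The library block decided most calls. Counts in this section stand without the share of all genes in each setting, so they show only how calls moved. With no replicate block 0 members passed for CD8 T against CD4 T cells, CD8 T cells against Treg, both Tcf7 contrasts, and 0 readout genes in the cell cycle high cells of either T class, while 2 passed for B cells, 5 for macrophages and 1 for Pdcd1. Leaving out 1 library gave 1 to 10 members for CD8 T against CD4 T cells, 0 to 2 for Treg against CD4 T cells, 0 to 6 for CD8 T cells against Treg, 7 to 14 for B cells, 8 to 19 for macrophages (members at 0 UMIs there included), 8 to 13 for Pdcd1, 0 to 9 for Tcf7, 0 to 6 for Tcf7 within Pdcd1-positive cells, and 40 to 50 (CD8 T) and 3 to 42 (CD4 T) readout genes in the high cells. With no filter on low counts the counts were 17, 9 and 3 (2 higher, 1 lower) for the 3 T-cell contrasts, 7 and 6 for the Tcf7 contrasts, 1 for the interaction, and 58 and 44 in the high cells. DESeq2 gave 2 for CD8 T against CD4 T cells, 4 for Tcf7 within Pdcd1-positive cells and 17 in high CD4 T cells. Under the study's limits on cells they were 4, 1 and 4 (3 higher, 1 lower) for the T-cell contrasts, 4 for macrophages, 3 for Pdcd1 and 0 for both Tcf7 contrasts, with 27 members tested between classes, and Cenpf (−1.88) and Ube2c (−0.10) turned sign between CD8 and CD4 T cells. Leaving out the 63 cells in 2 classes, also added, gave 6, 0, 1, 9 and 13 for the class contrasts. Leaving out doublets gave 3 for Treg against CD4 T cells. Reading the classes after thinning, added after seeing the data, gave 15, 1, 4 (3 higher, 1 lower) and 15 for the T-cell and B-cell contrasts. Thinning for Pdcd1 and Tcf7 gave 6, 9 and 6 members, and for Pdcd1 turned Birc5 (−1.67), Ube2c (−0.86), Ccna2 (−3.54), Top2a (−0.78), Mki67 (−0.66), Rrm2 (−0.52), Nusap1 (−0.32), Stmn1 (−0.15), Ccnb1 (−0.091) and Tyms (−0.052). High cells chosen after thinning gave 54 and 20 readout genes, and on mitotic UMIs, an added choice, 66 and 64.

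The difference in share of CD8 minus CD4 T cells, in percentage points, was −7.97 after thinning to 1000 UMIs, −3.04 at 4000, 1.27 unthinned, −8.89 at 10 or more UMIs, 1.96 and 2.32 at 3 and 5 or more UMIs of the 35 members other than the broadly expressed, −6.63 under the study's limits, and 2.19 and 1.14 for 3 and 5 mitotic UMIs. Treg minus CD4 T cells came to 4.29 at 4000 UMIs, 2.68 unthinned, 13.9 at 10 or more, 3.66 and 3.10 at 3 and 5 or more UMIs of the 35 members, 16.2 without doublets, 19.2 under the study's limits, and 3.10 and 1.13 for 3 and 5 mitotic UMIs. For Pdcd1-positive minus Pdcd1-negative CD8 T cells, Pdcd1 was read at full depth in every setting, and only member UMIs were thinned. That difference, 14.1 in the main setting, came to 5.18 at 4000 UMIs, 2.18 unthinned, 4.29 at 5 or more UMIs of the 35 members, and 3.67 and 2.53 for mitotic UMIs. Shares with Pdcd1 itself read after thinning, the choice that turned the fits, were not taken. At 3 UMIs of the 35 members both differences from CD4 T cells differed in sign between libraries. Of 454 settings of single genes 313 kept direction and call, 129 kept direction only and 12 turned. The cause of these changes was not tested. Depth limits macrophages most: 0 UMIs in a library there allows 12.4 to 20.9 CPM.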
